A study of Mus musculus with 162 samples.

Results

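The 10 genes described here encode the core of de novo fatty acid synthesis: the transcription factor Srebf1, the cofactor Thrsp, the suppliers of acetyl-CoA and NADPH Acly and Me1, the acetyl-CoA carboxylases Acaca and Acacb, the synthase Fasn, the elongase Elovl6 and the desaturases Scd1 and Scd2. They were picked by gene symbol and are 10 of the 53686 genes in the count table. The data came from poly(A) RNA sequencing of 9 organs, namely olfactory bulb (OB), brain without cerebellum and brainstem (BRN), cerebellum (CBL), brainstem (BST), stomach (STM), liver (LIV) and 3 fat depots, namely the brown fat between the shoulder blades (iBAT) and the white fat of the perigonadal (pgWAT) and posterior subcutaneous (psWAT) pads. The animals were 18 adult male C57BL/6J mice, 3 per time point, that either fed freely (0 h) or had no food but free water for 2, 8, 12, 18 or 22 h, and each animal gave all 9 organs. All mice were killed at the same time of day, soon after lights off. The 2 h group therefore lost food just before the dark period, the 8 and 12 h groups during the light period, and the 18 and 22 h groups during the previous night. White fat RNA was extracted with another kit than that of the other organs.

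The values are counts of reads per gene, given here as normalized CPM, that is, counts divided by the library total and a trimmed-mean (TMM) factor within the organ and scaled to 1000000. Library totals ran from 130701 to 27801717 counts (median 8696325.5). The 5 libraries absent from the study's list of samples, which drops low totals, were left out (STM 12 h replicate 3, BRN 8 h replicate 3 and 18 h replicate 1, iBAT 22 h replicate 1 and psWAT 22 h replicate 2), and the others were retained, with 3045845 to 27801717 counts (median 8735554). A level of 3 counts, used as the floor of what a library can show, equals 0.108 to 0.985 CPM in the retained libraries. All 10 members passed the filter on low counts in all 9 organs. Fold changes are log2 ± SE from edgeR's quasi-likelihood test. That test gives no SE, so the SE here is the absolute log2 change divided by the square root of its F statistic. Adjusted p-values are Benjamini-Hochberg values over all genes kept in the organ, and a gene is called, and said to have risen or fallen, at an adjusted p under 0.05.

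De novo fatty acid synthesis turns surplus carbohydrate into fat in the cytosol of liver and fat cells. Acly cleaves citrate to acetyl-CoA, the acetyl-CoA carboxylases make malonyl-CoA, Fasn builds palmitate from both with NADPH from enzymes such as Me1, and Elovl6 and the Scd enzymes lengthen and desaturate the product. The pathway is a textbook example of control by feeding, through insulin and Srebf1 and through glucose and the factor Mlxipl, and in the brain it also supplies lipid for myelin.

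Organ labels were checked against the summed CPM of marker genes. The 4 hepatocyte markers, led by Alb, summed to 63393 to 85825 CPM over the LIV libraries. In iBAT the 4 brown adipocyte markers, led by Ucp1, summed to 4283 to 12224 CPM and the 5 general adipocyte markers, led by Cidec, to 3726 to 5603. The 4 gastric epithelium markers, led by Tff1, reached 5429 to 43137 CPM in STM, and the 4 neuron markers, led by Snap25, lay at 3868 to 4419 in OB, 2161 to 4012 in BRN, 4806 to 5477 in CBL and 4466 to 5125 in BST. The 4 cerebellar neuron markers summed to 3515 to 4361 CPM in CBL. Most pgWAT libraries were rich in the 5 adipocyte markers, led by Adipoq.

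Several libraries stood apart. In pgWAT the 4 epididymis markers, led by Crisp1, summed to 19642 CPM in 18 h replicate 3 and 21108 in 22 h replicate 2, against 2617 in 2 h replicate 2, 653 in 22 h replicate 3 and at most 40.9 in the others. The adipocyte sum of pgWAT 22 h replicate 2 was 1714, the lowest of the organ, and pgWAT 18 h replicate 2 held 4174 CPM of hepatocyte markers. The psWAT libraries did not all look like fat: their adipocyte sums were 8738, 6036 and 538 CPM at 0 h, 750.0, 308 and 399 at 2 h, 11693, 3832 and 8608 at 8 h, 1121, 431 and 1609 at 12 h, 1412, 3265 and 4617 at 18 h and 173 and 4372 at 22 h. Brown adipocyte markers in psWAT summed to 1691, 1099 and 15.4 CPM at 0 h and 1115 in 22 h replicate 3, and to at most 269 in the libraries of other times and 22 h replicate 1. Skeletal muscle markers, led by Acta1, summed to 13.7 to 28628 CPM there. The psWAT 12 h replicate 3 library held 3732 CPM of neuron markers, 2710 of cerebellar neuron markers and 2807 of oligodendrocyte markers. Not all 12 marker lists are given here, and markers of another cell type tended to run higher where the psWAT adipocyte sum was low. In STM the keratinocyte sum, led by Krt10, ran from 257 to 8591 CPM, and the gastric epithelium sum, 29424, 17597 and 43137 at 0 h, spanned 5429 to 26008 (median 10234) at 18 and 22 h. Skeletal muscle markers in iBAT ran from 32.97 to 9341 CPM, and 3 of the 4 epididymis markers had no count in any iBAT library.

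Levels at 0 h set the organs far apart. Of the 10 members, 7 had their highest mean in iBAT, and the exceptions were Srebf1 in pgWAT, Me1 in psWAT and Scd2 in BST. The ratio of the highest to the lowest organ mean ran from 15.1 for Srebf1 to 498 for Scd2. The ranges of neighbours in the order overlapped in 48 of 80 pairs, so many neighbouring organs did not differ beyond their spread. The order also depends on the scaling between organs, since the values use factors within each organ. The full order was kept for 3 of 10 members on raw totals and for 1 with TMM factors over all organs, and the highest organ for 9 (not Scd1) and 8 (not Srebf1 and Me1). In the values that follow, each organ is given as mean ± SD in CPM over 3 mice, from high to low.

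Srebf1 followed the order pgWAT 666 ± 277, LIV 477 ± 75.5, psWAT 418 ± 257, iBAT 393 ± 100.2, OB 104.6 ± 11.02, STM 86.7 ± 8.92, BST 67.7 ± 3.71, BRN 58.9 ± 6.46 and CBL 44.2 ± 1.70, and neighbours overlapped except from iBAT to OB, STM to BST and BRN to CBL. For Thrsp the order was iBAT 3962 ± 1589.7, pgWAT 2896 ± 1376, psWAT 2208 ± 1670.4, LIV 1642 ± 86.7, CBL 64.6 ± 7.10, STM 29.9 ± 28.8, BST 24.6 ± 0.824, BRN 15.4 ± 4.05 and OB 12.1 ± 1.10. Here neighbours overlapped except from LIV to CBL and BST to BRN. The citrate lyase Acly was ordered iBAT 3178 ± 681, pgWAT 960.2 ± 826, psWAT 786 ± 597, BST 422 ± 69.4, OB 252 ± 17.3, BRN 187.2 ± 6.01, CBL 168.6 ± 5.71, LIV 167.4 ± 27.8 and STM 129.7 ± 28.7, without overlap from iBAT to pgWAT, BST to OB, OB to BRN and BRN to CBL. Me1, the malic enzyme, was ordered psWAT 622 ± 503, pgWAT 452 ± 165.9, iBAT 427 ± 83.4, STM 214 ± 27.8, LIV 97.6 ± 20.5, BST 65.2 ± 9.18, CBL 47.8 ± 4.46, OB 41.2 ± 2.42 and BRN 33.6 ± 4.17. Me1 neighbours were apart from iBAT to STM, STM to LIV, BST to CBL, CBL to OB and OB to BRN. Acaca, the main cytosolic carboxylase, stood at iBAT 952 ± 36.3, psWAT 395 ± 282, pgWAT 348 ± 193.1, LIV 64.2 ± 9.14, BST 51.9 ± 7.90, BRN 43.2 ± 10.7, OB 36.4 ± 1.09, CBL 25.6 ± 2.14 and STM 25.2 ± 3.23, with gaps from iBAT to psWAT, pgWAT to LIV and OB to CBL. Its relative Acacb, which sits at the outer mitochondrial membrane, stood at iBAT 1112 ± 244, psWAT 315 ± 243, pgWAT 263 ± 171.1, STM 88.1 ± 19.01, LIV 46.5 ± 13.5, BST 9.45 ± 1.94, CBL 7.51 ± 0.630, BRN 7.15 ± 1.40 and OB 6.84 ± 0.393. The gaps of Acacb lay from iBAT to psWAT, pgWAT to STM, STM to LIV and LIV to BST.

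Fasn stood at iBAT 11719 ± 1641, pgWAT 4318 ± 2938, psWAT 3521 ± 2876, LIV 797 ± 338, BRN 275 ± 35.1, STM 257 ± 31.0, OB 248 ± 15.02, BST 230.8 ± 23.2 and CBL 112.9 ± 6.68, and the ranges were apart from iBAT to pgWAT, LIV to BRN and BST to CBL. Elovl6, which extends palmitate to stearate, stood at iBAT 999 ± 132.1, psWAT 235.3 ± 222, BST 106 ± 13.4, LIV 100.8 ± 11.4, OB 98.8 ± 1.34, CBL 92.1 ± 6.98, STM 76.1 ± 56.5, BRN 58.2 ± 1.16 and pgWAT 50.2 ± 36.2. For Elovl6 the only gap was from iBAT to psWAT. Scd1, the main stearoyl-CoA desaturase of liver and fat, stood at iBAT 25624 ± 4588, pgWAT 24182 ± 611, psWAT 14953 ± 14963, LIV 1375 ± 40.4, BST 581 ± 8.40, OB 389 ± 147.8, CBL 244 ± 25.7, BRN 219 ± 24.3 and STM 84.9 ± 36.8, apart from LIV to BST, BST to OB and BRN to STM. Scd2, the form known from brain, stood at BST 2871 ± 186, OB 1695 ± 185, BRN 1407 ± 98.7, CBL 1406 ± 91.2, iBAT 333 ± 92.4, psWAT 303 ± 88.1, pgWAT 274 ± 65.3, STM 207 ± 79.5 and LIV 5.76 ± 0.899, apart from BST to OB, OB to BRN, CBL to iBAT and STM to LIV.

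Dividing by exon length allowed genes to be compared within an organ at 0 h. In LIV the highest level per kb was that of Thrsp (750.1 CPM per kb), followed by Scd1 at 281, Srebf1 at 84.6 and Fasn at 72.8, and the lowest was Scd2 at 1.05. Scd1 led in all 3 fat depots, at 5238 CPM per kb in iBAT, 4943 in pgWAT and 3057 in psWAT, with Thrsp and then Fasn behind it. In iBAT these were 1810.1 for Thrsp and 1071 for Fasn. Scd2 led in OB, BRN, CBL and BST, at 310.2, 258, 257 and 525 CPM per kb, and Me1 led in STM at 55.5. The desaturase pair split by organ: of the length-scaled sum of Scd1 and Scd2, Scd1 made up a median of 99.6% in LIV, 98.9% in iBAT and 99.1% in pgWAT, but 15.1% in BRN, 16.4% in CBL, 18.5% in BST and 20.5% in OB. In STM the Scd1 share ranged from 14.3 to 49.1% over the 3 mice. Of the carboxylase pair, Acaca made up a median of 75.1% in OB, 76.2% in BRN, 75.6% in BST and 64.4% in CBL. Its share was 44.6% in LIV, 43.4% in pgWAT, 43.3% in psWAT, 31.7% in iBAT and 13.05% in STM.

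**Figure D1:**
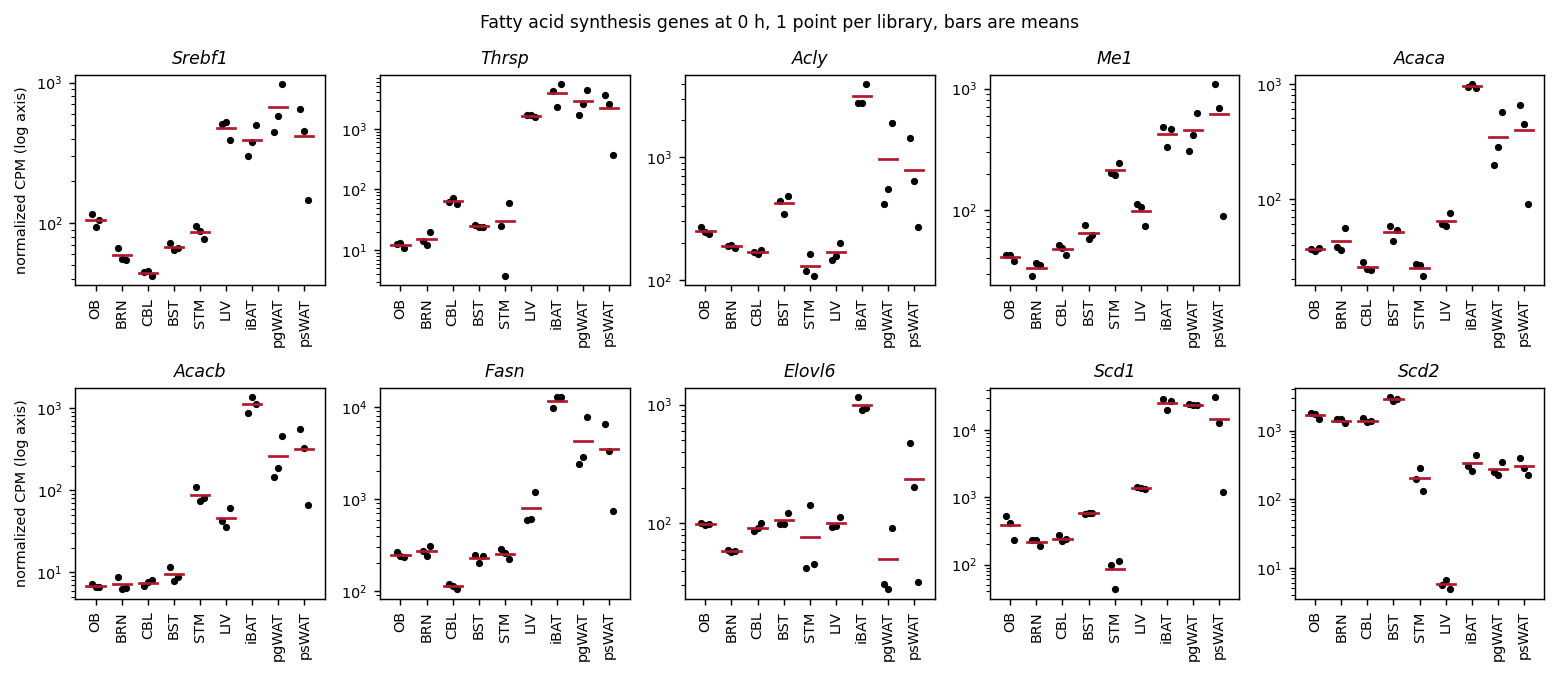
Level of each member at 0 h in the 9 organs, as normalized CPM on a log axis, with points for single libraries (3 mice per organ) and bars for means. Scd2 is highest in BST and lowest in LIV, whereas 7 of the 10 members are highest in iBAT.

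The 18 and 22 h libraries, called late below, were compared with 0 h in each organ. Members fell in LIV, iBAT and STM, and a single member rose in BRN. In LIV 4 of 10 members fell (Thrsp, Acly, Acacb and Fasn), where 10.6% of the 14023 genes tested were called and 5.39% called lower. Of the 18 fits that each left out a LIV library, 5 lost the call of Thrsp, 7 that of Acacb, 5 that of Fasn and 0 that of Acly, which alone was called without 0 h replicate 1, 0 h replicate 3 or 22 h replicate 2. In iBAT 7 of 10 fell (Srebf1, Acly, Acaca, Acacb, Fasn, Elovl6 and Scd2), against 20.9% of 14529 genes called and 13% called lower. The iBAT adipocyte sum was 3765, 3738 and 3842 CPM at 0 h and higher in all late libraries, at 4899.6, 4554 and 4621 (18 h) and 5603 and 5465 (22 h). In STM 3 of 10 fell (Srebf1, Fasn and Scd2), against 15.3% of 16281 genes called and 9.09% called lower. Skeletal muscle markers in STM summed to 1666, 1313 and 260.1 CPM at 0 h and 1820.0 to 3497 (median 2352) late, and neuron markers to 14.7, 21.9 and 30.1 and then 39.7 to 65.5 (median 51.9), without overlap. In BRN 1 of 10 rose (Thrsp), against 11.2% of 16749 genes called and 7.08% called higher, while oligodendrocyte markers summed to 6439.6, 6314 and 4996 CPM at 0 h and 15464 and 5835 (18 h) and 12789, 20385 and 7177 (22 h) late, 4 of 5 above every 0 h library. In these bulk samples, fewer cells of a type and less RNA per cell cannot be told apart.

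In OB, CBL, BST, pgWAT and psWAT edgeR called 0 of 10 members. For pgWAT, where 0.00609% of 16412 genes were called, 4 had an unadjusted p under 0.05 and DESeq2 called 3 and 6.92% of all genes. For psWAT, with 0% of 16714 genes called, 4 had an unadjusted p under 0.05 and DESeq2 called 1 and 0.0718% of all genes. For OB, with 1.95% of 16742 genes called, 1 had an unadjusted p under 0.05 and DESeq2 called 1 and 4.84% of all genes. For CBL, with 0.344% of 15976 genes called, 2 had an unadjusted p under 0.05 and DESeq2 called 0 and 2.18% of all genes, and for BST, with 0.0596% of 16784 genes called, 2 had an unadjusted p under 0.05 and DESeq2 called 0 and 0.131% of all genes. All 10 members had a negative estimate in LIV, iBAT, pgWAT and psWAT. Median log2 changes of the members, each followed by the median over all genes tested, were -0.64 and 0.01 in LIV, -0.82 and -0.07 in iBAT, -0.93 and 0.05 in pgWAT, -1.47 and -0.01 in psWAT, and -0.57 and -0.00 in STM. The same pairs were 0.03 and -0.01 in OB, 0.32 and -0.09 in BRN, 0.12 and -0.01 in CBL, and 0.02 and -0.00 in BST. With the libraries of low totals put back, edgeR called 7 members in iBAT, 2 in STM, 0 in psWAT and 0 in BRN, with 8, 6, 6 and 1 at an unadjusted p under 0.05. The genes called in all were 2500, 1689, 0 and 0.

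**Figure D2:**
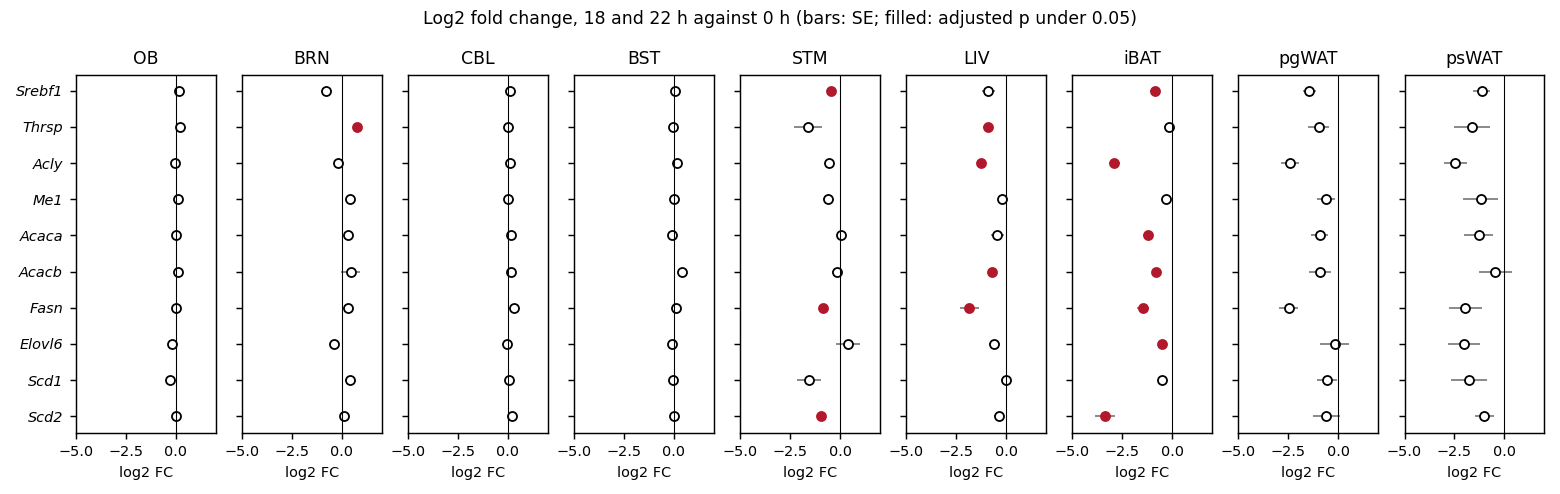
Log2 fold change of each member at 18 and 22 h against 0 h, with SE, in the 9 organs, where filled red points have an adjusted p under 0.05. The filled points number 7 in iBAT, 4 in LIV, 3 in STM and 1 in BRN.

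Other measures moved with these counts. The LIV libraries of 0 h, 2 h and 8 h replicates 1 and 2 were sequenced in lane 1 and all the others, 8 h replicate 3 and 12, 18 and 22 h, in lane 2, so that no lane holds both arms and lane and time cannot be told apart except through the 8 h mice. With lane as a term, edgeR called 0 of 10 members in LIV (2 at an unadjusted p under 0.05, 21 genes in all), with Acly at -0.58 ± 0.23 (adjusted p = 0.229), Fasn at -0.39 ± 0.89 (adjusted p = 0.886), Thrsp at -0.33 ± 0.48 and Acacb at -0.30 ± 0.39. The STM libraries split over lanes 5 and 6 in the same way, and with lane as a term edgeR called 0 of 10 members there (3 at an unadjusted p under 0.05) and 0 of all genes. DESeq2 was not run with lane. In iBAT lane could not be fitted with the 22 h libraries, each the only one of its lane. Fits without them, chosen after seeing the data, compared 18 h alone with 0 h. Without a lane term edgeR called 1 of 10 members (6 at an unadjusted p under 0.05) and 0.379% of all genes, with Acly at -2.23 ± 0.32 (adjusted p = 0.00498). With lane it called 0 (4 at an unadjusted p under 0.05) and 3 genes in all, with Acly at -1.996 ± 0.32 (adjusted p = 0.0577), Fasn at -0.94 ± 0.39 (adjusted p = 0.720), Acaca at -0.95 ± 0.34 and Scd2 at -2.68 ± 0.71. The 18 h replicate 2 library is also alone in its lane, so with lane the 18 h group rests on the other 2 libraries, and lane and the loss of that library cannot be told apart. Lanes 5 and 8 held both 0 h and 18 h libraries. Within lane 8, Acly was at 2772 and 2799 CPM at 0 h and 947 at 18 h, Fasn at 9824 and 12657 against 6292, and Scd2 at 305 and 257 against 89.9. Within lane 5 Acly read 3964 CPM at 0 h and 659 at 18 h, Fasn 12676 and 6080.2, and Scd2 436 and 26.3.

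Transcript length moved with time in iBAT as well. The median log2 change at 18 and 22 h was 0.43 over genes with under 2 kb of exon, 0.13 at 2 to 4 kb, -0.23 at 4 to 8 kb and -0.58 over 8 kb, and Acaca, Acacb and Fasn are all in the longest class. With each library's length trend as an offset, 2 of 10 members remained called in iBAT, against 13.3% of all genes, Acly at -2.75 ± 0.25 and Scd2 at -3.20 ± 0.51, while Fasn was at -0.90 ± 0.33 (adjusted p = 0.0788), Acaca at -0.45 ± 0.33 and Acacb at -0.29 ± 0.21. BRN had a like trend, from 0.46 under 2 kb to -0.48 over 8 kb, and with the offset Thrsp was no longer called (0.45 ± 0.23, adjusted p = 0.251) while Acaca (0.97 ± 0.21, adjusted p = 0.0267) and Fasn (0.80 ± 0.21, adjusted p = 0.0451) were called higher. That BRN fit called 623 genes in all. Without the offset edgeR called neither Acaca (adjusted p = 0.254) nor Fasn (adjusted p = 0.184) in BRN, and with lane as a term it called neither. In LIV the trend was flat, 0.03 under 2 kb and -0.01 over 8 kb. What lies behind the length trend was not tested.

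Srebf1 encodes the sterol regulatory element-binding transcription factor of lipogenic genes. In LIV it read 512, 528 and 389.9 CPM at 0 h and 166.6 to 537 (median 221) at 18 and 22 h. Of the late libraries 5 of 6 lay below every 0 h library, and 18 h replicate 1 was the exception at 537. The log2 change of -0.89 ± 0.31 was not called (adjusted p = 0.0874). In iBAT Srebf1 read 299, 381 and 499 CPM at 0 h and 367, 257, 227, 157.2 and 179 late, with 4 of 5 late libraries below all of 0 h, and fell by 0.85 ± 0.25 on the log2 scale (adjusted p = 0.0254). STM held 94.6, 88.6 and 77.04 CPM at 0 h and 55.5 to 71.5 (median 66.2) late. These groups did not overlap and Srebf1 fell by 0.43 ± 0.13 (adjusted p = 0.0356), although the call was lost in 7 of the 17 fits that each left out a library. In pgWAT the levels were 443, 578 and 976 CPM at 0 h and 121.8 to 346 (median 251) late. These were also apart, but the change of -1.45 ± 0.32 was not called (adjusted p = 0.0763). BRN had 66.3, 55.8 and 54.6 CPM at 0 h and 12.5, 40.01, 48.6, 46.2 and 39.02 late, the lowest being 18 h replicate 2, and its change of -0.76 ± 0.26 was not called either (adjusted p = 0.0599).

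Thrsp, also known as Spot 14, is a small lipogenic protein that pairs with the product of Mid1ip1. LIV held 1706, 1677 and 1543 CPM of Thrsp at 0 h and 553 to 1307 (median 759) at 18 and 22 h, with no overlap, and Thrsp fell by 0.91 ± 0.24 (log2, adjusted p = 0.0286). In iBAT the 0 h mice differed widely, at 4144, 2289.6 and 5453 CPM. Late libraries there, 2619, 2346, 2652, 5750.3 and 4016, lay inside or above that range, and the change of -0.17 ± 0.25 was not called. BRN went the other way at a low level, with 14.3, 11.996 and 19.9 CPM at 0 h and 20.6, 26.4, 31.9, 34.9 and 23.5 late. All 5 late BRN libraries exceeded every 0 h library, and Thrsp rose by 0.79 ± 0.24 (adjusted p = 0.0413), but 10 of the 16 fits that each left out a library lost the call. The library names of all BRN 0 h libraries belong to one number series and those of all late ones to another, so that series and time cannot be told apart within these groups, and with the series as a term Thrsp was at 0.73 ± 0.37 (adjusted p = 0.505) and edgeR called 0 of all genes. In STM Thrsp was at 25.1, 3.8004 and 60.8 CPM at 0 h, too scattered for its change of -1.59 ± 0.71 to be called (adjusted p = 0.140). In pgWAT it was at 1709, 2576 and 4404 CPM at 0 h and 194 to 2431 (median 1476) late, where the lowest value was that of 22 h replicate 2, the library with 1714 CPM of adipocyte markers.

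Acly, which makes cytosolic acetyl-CoA from citrate, had the lowest adjusted p of the members in LIV and in iBAT. LIV levels were 146.2, 157.1 and 199 CPM at 0 h and 52.6 to 88.1 (median 75.6) at 18 and 22 h. The groups were apart, and Acly fell by 1.24 ± 0.13 on the log2 scale (adjusted p = 9.35e-05). In iBAT Acly read 2772, 2799 and 3964 CPM at 0 h and 947, 446, 659, 219.8 and 311 late. Every late library was below every 0 h library, and Acly fell by 2.90 ± 0.27 (adjusted p = 2.76e-05). In pgWAT the 0 h mice had 416, 553 and 1911 CPM, the third animal far above the others, and the late libraries had 127 to 254 (median 167.9). Although 6 of 6 late libraries lay below 0 h, the change of -2.42 ± 0.44 was not called (adjusted p = 0.0603). The psWAT pattern was alike, 1441, 645 and 272 CPM at 0 h and 184, 131.5, 88.5, 44.3 and 263 late, 5 of 5 below, with -2.45 ± 0.59, adjusted p = 0.937. STM had 118.8, 162.2 and 108 CPM at 0 h and 52.1 to 125.8 (median 87.0) late (-0.53 ± 0.22, adjusted p = 0.0982, not called).

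Me1, the cytosolic malic enzyme that yields NADPH, was not called at 18 and 22 h in any of the 9 organs. Its LIV levels were 113.3, 105.1 and 74.4 CPM at 0 h and 65.6 to 99.7 (median 91.4) late, and its iBAT levels 482, 331 and 467 at 0 h and 301, 399, 392, 379.5 and 289 late. Both pairs of groups overlapped, with log2 changes of -0.19 ± 0.18 in LIV and -0.29 ± 0.20 in iBAT. In STM Me1 read 200.4, 195 and 246 CPM at 0 h and 103.4 to 229 (median 129) late (-0.60 ± 0.25, adjusted p = 0.102). Of the 50-base stretches of Me1 exons, 22.9% also occur in another gene, mostly in Gm7049, so Me1 counts are less certain than those of Acly, Acacb and Fasn, which share none.

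The carboxylases Acaca and Acacb make malonyl-CoA, the substrate of Fasn and, near mitochondria, an inhibitor of fatty acid import. Acacb in LIV stood at 42.2, 35.7 and 61.6 CPM at 0 h and 21.99 to 32.0 (median 30.3) at 18 and 22 h. Although all 6 late libraries were below 0 h, the gap to the lowest 0 h mouse was small, and Acacb fell by 0.69 ± 0.20 (log2, adjusted p = 0.0382). Acaca in LIV read 60.2, 57.9 and 74.7 CPM at 0 h and 27.9 to 115.3 (median 37.4) late. Its highest late value was again 18 h replicate 1, and the change of -0.44 ± 0.33 was not called. Without that library, Acaca, Srebf1, Thrsp, Acly and Fasn were the members called in LIV. In iBAT both genes fell. Acaca read 937, 993 and 925 CPM at 0 h and 534, 393, 449, 362 and 355 late, without overlap (-1.23 ± 0.25, adjusted p = 0.00481). Acacb there read 862, 1351 and 1124 CPM at 0 h and 834, 690.2, 893, 527 and 493 late, with the highest late library inside the 0 h range (-0.79 ± 0.22, adjusted p = 0.0180). STM held 27.4, 26.7 and 21.5 CPM of Acaca and 109.7, 73.8 and 80.9 of Acacb at 0 h, and neither was called there. In BST, Acacb had an estimate of 0.43 ± 0.13 that was not called after adjustment (adjusted p = 0.261). Of the 50-base stretches of Acaca exons, 30.4% occur in another gene, mostly in Gm5182.

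Fasn encodes the multienzyme that builds palmitate. In LIV it read 591, 614 and 1187 CPM at 0 h, the third mouse well above the others, and 125.7 to 476 (median 172) at 18 and 22 h. All 6 late libraries lay below 0 h, with 18 h replicate 1 the highest, and Fasn fell by 1.85 ± 0.47 on the log2 scale (adjusted p = 0.0272). In iBAT, where Fasn was at 9824, 12657 and 12676 CPM at 0 h, the late libraries held 6292, 3314, 6080.2, 3709 and 3188. Those groups were apart as well, and Fasn fell by 1.46 ± 0.30 (adjusted p = 0.00496). In STM Fasn read 287, 257 and 225 CPM at 0 h and 106 to 171.3 (median 143.7) late, again with no overlap, and fell by 0.86 ± 0.18 (adjusted p = 0.00733), a call that none of the 17 fits leaving out a library lost. The pgWAT mice had 2416, 2836 and 7703 CPM at 0 h and 219.7 to 1625 (median 702) late, apart but not called (-2.49 ± 0.49, adjusted p = 0.0714). In psWAT the 0 h mice alone covered 6490.3, 3326 and 748 CPM, and the late libraries, 605, 385, 842, 75.4 and 2603, lay within and below that spread (-1.96 ± 0.82, adjusted p = 0.937). Fasn in CBL had an estimate of 0.29 ± 0.10 (adjusted p = 0.174) from levels of 119.2, 113.7 and 106 CPM at 0 h and 115.2 to 151.1 (median 138.6) late.

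Elovl6, the elongase of palmitate, fell in iBAT by a small margin. Its iBAT levels were 1151, 907 and 940.4 CPM at 0 h and 756, 917, 821, 691 and 475 at 18 and 22 h. The groups overlapped by 1 library, and the change of -0.52 ± 0.18 (adjusted p = 0.0443) lost its call in 12 of the 17 fits that each left out a library. In LIV Elovl6 read 93.6, 94.7 and 113.97 CPM at 0 h and 40.6 to 131.9 (median 59.9) late, with 18 h replicate 1 above all of 0 h, and -0.58 ± 0.26 was not called (adjusted p = 0.175). STM values ranged widely, 41.8, 141.4 and 45.2 CPM at 0 h and 20.1 to 151.4 (median 107) late. The keratinocyte sums of the same 0 h libraries were 1792, 6081 and 1737 CPM. The lowest and highest late STM values were those of 22 h replicates 1 and 3, with keratinocyte sums of 257 and 8591 CPM. In pgWAT the highest late library, at 151.4 CPM, was 18 h replicate 3, which held 19642 CPM of epididymis markers. In OB, where the spread was small, Elovl6 read 100.2, 97.6 and 98.6 CPM at 0 h and 81.2 to 96.8 (median 84.3) late, an estimate of -0.20 ± 0.06 that missed the threshold (adjusted p = 0.0816).

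Scd1 and Scd2 place a double bond in saturated acyl-CoA. Scd2 in iBAT had the largest fall among the members called. Its levels were 305, 257 and 436 CPM at 0 h and 89.9, 35.9, 26.3, 14.95 and 25.7 at 18 and 22 h. Every late library was below 0 h, and Scd2 fell by 3.36 ± 0.52 on the log2 scale (adjusted p = 0.00215). Scd1 in iBAT, a far more abundant transcript, read 28941, 20387 and 27544 CPM at 0 h and 21866, 13449, 14578, 20343 and 18397 late and was not called (-0.51 ± 0.20, adjusted p = 0.0791). The Scd1 share of the length-scaled pair in iBAT was 98.9% (98.6 to 99.1%) at 0 h and 99.8% (99.6 to 99.9%) late, without overlap. In STM Scd2 read 199, 289 and 130.95 CPM at 0 h and 64.9 to 140.4 (median 117.5) late, with 5 of 6 late libraries below 0 h (-0.93 ± 0.23, adjusted p = 0.0162). Scd1 in STM read 98.4, 43.3 and 113.1 CPM at 0 h and 14.2 to 46.9 (median 30.3) late and was not called (adjusted p = 0.1004). LIV Scd1 stood at 1410.4, 1383 and 1331 CPM at 0 h, at 1579, 2357 and 2887 at 18 h, all above 0 h, and at 730.2, 720.3 and 1028 at 22 h, all below 0 h. The pooled change of -0.00 ± 0.25 averages over both times, which were not tested apart. LIV Scd2 was low throughout, 5.64, 6.71 and 4.92 CPM at 0 h and 3.03 to 5.39 (median 4.65) late. In pgWAT Scd1 was at 24797, 24173 and 23575 CPM at 0 h and 1939 to 22072 (median 20820) late, the lowest being 22 h replicate 2. The highest late Scd2 values of pgWAT, 562 CPM in 22 h replicate 2 and 277 in 18 h replicate 3, were those of the libraries with the highest epididymis sums, against 248, 225 and 348 at 0 h, while 22 h replicate 3, with 653 CPM of these markers, had 78.8.

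**Figure D3:**
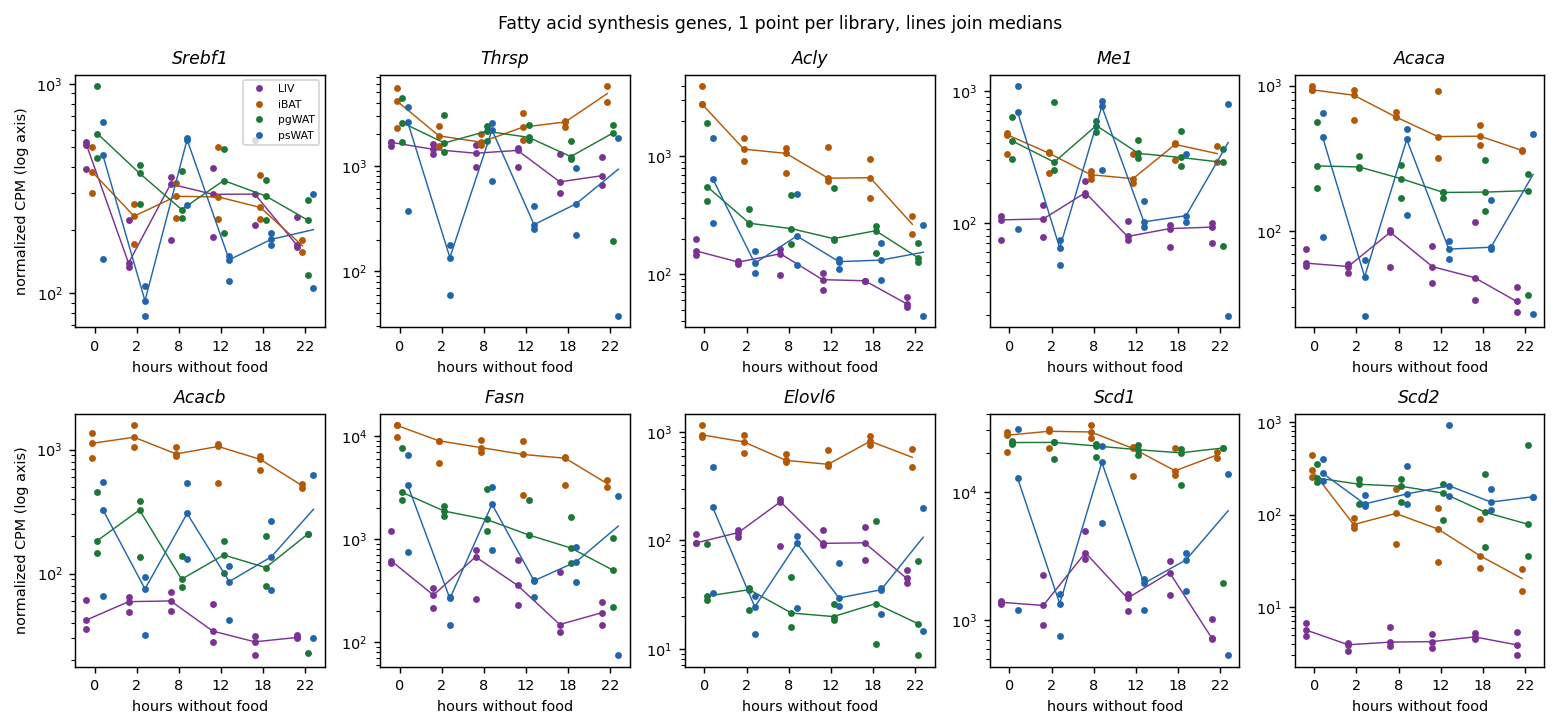
Normalized CPM on a log axis against hours without food for each member, with points for single libraries in LIV, iBAT, pgWAT and psWAT (2 or 3 mice per time point) and lines joining the medians. The iBAT points of Acly and Scd2 at 18 and 22 h all lie below those at 0 h.

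Because of the libraries that stood apart, the late comparison was repeated in ways chosen after seeing the data. Without the 2 pgWAT libraries with the highest epididymis sums, 18 h replicate 3 and 22 h replicate 2, and with 22 h replicate 3 kept, 3 of 10 members were called, against 1.57% of all genes: Acly at -2.58 ± 0.52 (adjusted p = 0.0410), Fasn at -2.16 ± 0.46 (adjusted p = 0.0423) and Scd2 at -2.06 ± 0.37 (adjusted p = 0.0381). With the adipocyte marker sum, by which 22 h replicate 2 stands far from the rest, as a covariate and all 18 pgWAT libraries, 6 were called, against 5.07% of all genes: Srebf1 at -1.43 ± 0.29, Thrsp at -1.07 ± 0.23, Acly at -2.47 ± 0.46, Acaca at -0.98 ± 0.27, Fasn at -2.49 ± 0.43 and Scd1 at -0.71 ± 0.14. With lane as a term edgeR called 0 members in pgWAT (2 at an unadjusted p under 0.05), and Acly was at -3.30 ± 1.05, where all 0 h libraries were in lane 5 and all late ones in lane 6. In psWAT the adipocyte covariate left 0 members called by edgeR (6 at an unadjusted p under 0.05) and a member median of -0.78, and lane as a term left 0 (7 at an unadjusted p under 0.05). With the keratinocyte sum as a covariate in STM, Srebf1, Fasn and Scd2 were called again, together with Acly at -0.67 ± 0.15 (adjusted p = 0.00765), against 18.3% of all genes. In BRN, with lane as a term edgeR called 0 members and 0 of all genes, and 0 members had an unadjusted p under 0.05. With lane in OB, edgeR called 0 members and 1 had an unadjusted p under 0.05.

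In psWAT most members followed the adipocyte markers. Over its 17 libraries the Pearson correlation of log2 CPM with the log2 adipocyte sum was 0.939 for Thrsp, 0.927 for Me1, 0.920 for Scd1, 0.915 for Srebf1, 0.907 for Acaca, 0.905 for Acacb and 0.884 for Fasn. It was lower for Elovl6 (0.732) and Acly (0.610) and lowest for Scd2 (0.202). The library with neuron markers, 12 h replicate 3, was kept here and had the highest psWAT Scd2, 923 CPM against at most 400 in the others. The 3 psWAT libraries rich in brown adipocyte markers, 0 h replicates 1 and 2 and 22 h replicate 3, also had the highest Elovl6, 472 and 202 and 199 CPM against at most 108.9, and the first pair the highest Fasn. Over the 18 pgWAT libraries the same correlation was 0.939 for Scd1 and 0.868 for Thrsp but 0.467 for Fasn, 0.0143 for Acly, -0.479 for Elovl6 and -0.609 for Scd2. The first pair rests largely on 22 h replicate 2, with 1714 CPM of adipocyte markers against 11214 to 21234 in the others, and over the 17 libraries without it the values were 0.417 for Scd1, 0.334 for Thrsp, -0.311 for Fasn, -0.431 for Acly, -0.640 for Elovl6 and -0.638 for Scd2. Over the 17 iBAT libraries it was negative for 9 members, among them Acly (-0.779), Scd2 (-0.749), Acaca (-0.675), Acacb (-0.667) and Fasn (-0.646), and 0.391 for Thrsp. These correlations pool all time points and share the scaling of each library.

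The 8 and 12 h mice, which lost food in the light period, were compared with the same 0 h mice, so these values share their controls with the late comparison. Fewer members were called than in the late comparison, and Acly was called lower in both LIV and iBAT. In LIV 1 of 10 members fell (Acly), against 8.89% of genes called and 4.81% called lower. In iBAT 3 of 10 fell (Acly, Me1 and Elovl6), against 0.819% and 0.619% lower. In STM, pgWAT and psWAT edgeR called 0 of 10 members and 0%, 0% and 0% of genes. Of the members, in STM 2 had an unadjusted p under 0.05 and DESeq2 called 0 and 0.0123% of all genes, in pgWAT 3 had an unadjusted p under 0.05 and DESeq2 called 0 and 0.0366% of all genes, and in psWAT 3 had an unadjusted p under 0.05 and DESeq2 called 0 and 0.0179% of all genes. Member medians, each followed by that of all genes, were -0.13 and 0.01 in LIV, -0.79 and -0.01 in iBAT, -0.25 and -0.03 in STM, -0.92 and -0.03 in pgWAT, and -1.40 and -0.02 in psWAT.

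Acly in LIV spanned 72.7 to 162.3 (median 100.6) CPM at 8 and 12 h. Of these 4 of 6 libraries lay below every 0 h library, the others being 8 h replicates 1 and 2, and Acly fell by 0.61 ± 0.14 (adjusted p = 0.00965). The iBAT libraries of 8 and 12 h held 615 to 1200.2 (median 889) CPM of Acly, all below 0 h (-1.82 ± 0.25, adjusted p = 0.00145). Me1 in iBAT spanned 200.3 to 333 (median 224) CPM, with 5 of 6 below 0 h (-0.83 ± 0.19, adjusted p = 0.0469), and this call was lost in 12 of the 17 fits that each left out a library. Elovl6 in iBAT spanned 486 to 679.8 (median 539) CPM, all below 0 h (-0.83 ± 0.17, adjusted p = 0.0225). Thrsp in iBAT, at 1599.7 to 3215 (median 1905), had 4 of 6 libraries below 0 h and was not called (-0.93 ± 0.23, adjusted p = 0.0776). For iBAT Scd2 the span was 30.5 to 187.6 (median 86.4), again all below 0 h and not called (-1.87 ± 0.46, adjusted p = 0.0980), and for iBAT Fasn it was 2669 to 9092 (median 7332), all below 0 h too (-0.75 ± 0.28, adjusted p = 0.358).

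In LIV the 8 h mice held the highest Scd1 levels of the time course, 3360.1, 4961 and 2979 CPM, against 1410.4, 1383 and 1331 at 0 h and 1592, 1189 and 1487 at 12 h. Pooled over 8 and 12 h the Scd1 change of 0.75 ± 0.26 was not called (adjusted p = 0.0832). The 8 h mice were split between lanes: in lane 1, replicates 1 and 2 had 778 and 674 CPM of Fasn, and in lane 2, replicate 3 had 265. Elovl6 was split likewise, 227 and 240.1 in lane 1 and 88.9 in lane 2, and Acly read 148.9 and 162.3 in lane 1 and 98.8 in lane 2. With lane as a term, Elovl6 at 8 and 12 h was called higher (1.32 ± 0.25, adjusted p = 0.0107), and Acly was at -0.19 ± 0.17 and no longer called. This term rests on 8 h replicate 3, the 1 library of its time point in lane 2, so its value cannot be told apart from that mouse. With lane in STM, pgWAT and psWAT at 8 and 12 h, edgeR called 0, 0 and 0 members, with 1, 3 and 3 at an unadjusted p under 0.05. In iBAT without the 22 h libraries, edgeR called 3 members at 8 and 12 h (Acly, Me1 and Elovl6), and with lane as a term as well 1, Acly, at -1.71 ± 0.23 (adjusted p = 0.00617), against 0.406% of all genes.

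After 2 h without food, against the same 0 h mice, edgeR called 0 of 10 members in each of the 5 organs tested. The genes called made up 0.143% in LIV, 0.248% in iBAT, 0% in STM, 0% in pgWAT and 0% in psWAT. Of the members, in LIV 4 had an unadjusted p under 0.05 and DESeq2 called 1 and 1.14% of all genes, in iBAT 4 had an unadjusted p under 0.05 and DESeq2 called 3 and 1.05% of all genes, in STM 0 had an unadjusted p under 0.05 and DESeq2 called 0 and 0.0123% of all genes, in pgWAT 2 had an unadjusted p under 0.05 and DESeq2 called 0 and 0.0731% of all genes, and in psWAT 9 had an unadjusted p under 0.05 and DESeq2 called 8 and 1.48% of all genes. Member medians and those of all genes were -0.19 and -0.00 in LIV, -0.53 and -0.00 in iBAT, -0.16 and -0.01 in STM, -0.50 and 0.02 in pgWAT, and -3.21 and 0.02 in psWAT.

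Some members were nonetheless low in all 3 mice at 2 h. In LIV, Srebf1 read 224, 133.1 and 139.1 CPM against 512, 528 and 389.9 at 0 h (-1.53 ± 0.38, adjusted p = 0.151). Fasn in LIV read 287, 336 and 213 against 591, 614 and 1187 (-1.51 ± 0.57, adjusted p = 0.354). Both were below every 0 h mouse. These LIV libraries were all in lane 1, so this comparison is within a lane. In iBAT, Acly was at 1429, 1153 and 915 CPM against 2772, 2799 and 3964 (-1.45 ± 0.31, adjusted p = 0.0596), and Scd2 at 71.4, 78.0 and 92.3 against 305, 257 and 436 (-2.05 ± 0.57, adjusted p = 0.272). In psWAT the 2 h mice held 266, 148.6 and 278 CPM of Fasn against 6490.3, 3326 and 748 (-3.93 ± 1.04, adjusted p = 0.407), while their adipocyte sums, 750.0, 308 and 399 CPM, were near that of the third 0 h mouse and below those of the others. With the adipocyte sum as a covariate the psWAT member median moved from -3.21 to -0.74. The 2 h psWAT libraries were all sequenced in lane 5, as were 0 h replicates 2 and 3, for which Fasn read 3326 and 748 CPM. In pgWAT, Acly at 2 h read 359, 269 and 271 CPM against 416, 553 and 1911, and Fasn 2074, 1674 and 1869 against 2416, 2836 and 7703. With lane as a term edgeR called 0 members in LIV, STM, pgWAT and psWAT at 2 h, with 4, 0, 1 and 8 at an unadjusted p under 0.05, and 0 in iBAT without the 22 h libraries (4).

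The 18 and 22 h mice, which lost food during the previous night, were also set against the 8 and 12 h mice. The 0 h libraries are in neither arm but enter the scaling and the dispersions of the fit, and each arm is shared with a comparison above. Acly and Acacb were lower in both LIV and iBAT, and Thrsp and Me1 were higher in iBAT. In LIV 3 of 10 members were lower (Acly, Acacb and Elovl6), against 2.7% of genes called and 1.58% called lower. In iBAT 3 were lower (Acly, Acacb and Scd2) and 2 higher (Thrsp and Me1), against 23.3% of genes called, 12.5% lower and 10.8% higher. In STM, pgWAT and psWAT edgeR called 0 of 10 members, against 3.96%, 0.00609% and 0% of genes. Of the members, in STM 3 had an unadjusted p under 0.05 and DESeq2 called 1 and 10.3% of all genes, in pgWAT 1 had an unadjusted p under 0.05 and DESeq2 called 0 and 2.52% of all genes, and in psWAT 1 had an unadjusted p under 0.05 and DESeq2 called 0 and 0.138% of all genes. Member medians and those of all genes were -0.62 and 0.00 in LIV, -0.52 and -0.10 in iBAT, -0.28 and 0.01 in STM, -0.37 and 0.03 in pgWAT, and -0.07 and -0.00 in psWAT.

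LIV Acly spanned 72.7 to 162.3 (median 100.6) CPM at 8 and 12 h and 52.6 to 88.1 (median 75.6) at 18 and 22 h and fell by 0.63 ± 0.11 (adjusted p = 0.0128). LIV Acacb spanned 28.1 to 71.3 (median 53.5) and then 21.99 to 32.0 (median 30.3) (-0.76 ± 0.17, adjusted p = 0.0301). LIV Elovl6 spanned 88.9 to 240.1 (median 109.3) and then 40.6 to 131.9 (median 59.9) (-1.04 ± 0.22, adjusted p = 0.0317). For each gene the spans overlapped. Within lane 2 alone, which held 4 of the 6 libraries of 8 and 12 h, edgeR called 0 of 10 members, with 5 at an unadjusted p under 0.05 and 2 genes called in all: Acly was at -0.40 ± 0.12 (adjusted p = 0.295), Acacb at -0.63 ± 0.19 (adjusted p = 0.312) and Elovl6 at -0.51 ± 0.19 (adjusted p = 0.424). In iBAT, Thrsp spanned 1599.7 to 3215 (median 1905) CPM at 8 and 12 h, read 2619, 2346, 2652, 5750.3 and 4016 at 18 and 22 h and rose by 0.76 ± 0.20 (adjusted p = 0.0172). Me1 in iBAT spanned 200.3 to 333 (median 224) CPM, then read 301, 399, 392, 379.5 and 289 and rose by 0.54 ± 0.17 (adjusted p = 0.0308). Acly in iBAT spanned 615 to 1200.2 (median 889) CPM, then read 947, 446, 659, 219.8 and 311 and fell by 1.08 ± 0.23 (adjusted p = 0.00999). All of these iBAT groups overlapped, as did those of Scd2 and Acacb. Scd2 in iBAT spanned 30.5 to 187.6 (median 86.4) CPM, then read 89.9, 35.9, 26.3, 14.95 and 25.7 (-1.48 ± 0.44, adjusted p = 0.0300). Acacb in iBAT spanned 542 to 1115 (median 991) CPM, then read 834, 690.2, 893, 527 and 493 (-0.54 ± 0.18, adjusted p = 0.0423), a call lost in 12 of the 17 fits that each left out a library. Without iBAT 22 h replicate 2, 0 of the 10 members were called by edgeR, and without 12 h replicate 1, 9 were. The shares of all genes called in these fits are not given here, so these counts are not read as particular to the members. With 18 h alone against 8 and 12 h in iBAT, edgeR called 0 members without a lane term and 0 with it (3 and 2 at an unadjusted p under 0.05), and 0 and 0 of all genes. Within lane 6 alone in STM, edgeR called 0 members, and 3 had an unadjusted p under 0.05.

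Whether a member's change at 18 and 22 h differed between organs was tested with the organ-by-time term, with libraries of the same time and replicate number taken as the same mouse and the mouse as a block. Between LIV and iBAT, over 17 mice, 2 of 10 members differed, against 9.39% of genes. Acly fell less in LIV than in iBAT, with a log2 difference of 1.72 ± 0.29, adjusted p = 0.00398, and the Scd2 difference was 2.96 ± 0.62, adjusted p = 0.0148. The LIV arms lie in different lanes, so lane and the organ-by-time term cannot be told apart here. The Fasn difference was -0.50 ± 0.49, adjusted p = 0.564, and the Acaca difference 0.78 ± 0.34, adjusted p = 0.157, so a call of Acaca in iBAT and none in LIV was not shown to differ. The members' median difference was 0.16, beside 0.09 over all genes. Between LIV and pgWAT (18 mice, 0.0173% of genes), LIV and psWAT (17 mice, 0%) and iBAT and psWAT (16 mice, 0.00581%), edgeR called 0 of 10 members, with 0, 0 and 1 at an unadjusted p under 0.05. The last was Scd2, at -2.24 ± 0.58, adjusted p = 0.299. DESeq2 was not run for these terms. These tests share the LIV, iBAT and psWAT libraries among them.

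A list of 31 other genes of the pathway was followed in the same fits. At 18 and 22 h against 0 h the genes called were 0 higher and 8 lower of 27 tested in LIV, 1 higher and 10 lower of 26 in iBAT, 0 higher and 7 lower of 28 in STM, 0 higher and 1 lower of 29 in OB and 1 higher and 1 lower of 29 in BRN, where 10.6%, 20.9%, 15.3%, 1.95% and 11.2% of all genes were called. A lane term left 0 of them called by edgeR in LIV, STM, OB and BRN (6, 3, 4 and 3 at an unadjusted p under 0.05), and with 18 h alone as the late group in iBAT it called 6 lower without lane and 0 with it (10 at an unadjusted p under 0.05). The values below are without lane. In CBL, BST, pgWAT and psWAT edgeR called 0 of 29, 29, 27 and 30, with 4, 4, 7 and 8 at an unadjusted p under 0.05. Among the regulators, Insig1, which retains the Srebf proteins in the endoplasmic reticulum, fell in LIV (-1.28 ± 0.19), iBAT (-1.36 ± 0.20) and STM (-1.17 ± 0.20), and so did Mid1ip1, the partner of Thrsp, by log2 changes of -1.41, -2.30 and -0.67. Srebf2, the factor of cholesterol synthesis, fell in LIV (-0.48), iBAT (-0.79) and BRN (-0.45). Mlxipl, the carbohydrate response factor, fell in iBAT (-1.93 ± 0.25) and Insig2 in STM (-0.78).

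Of the genes that supply acetyl-CoA and NADPH, Acss2, which makes acetyl-CoA from acetate, fell in LIV (-1.06 ± 0.14) and iBAT (-1.88 ± 0.20). Pgd, of the pentose phosphate pathway, fell in LIV (-0.56), iBAT (-1.37) and STM (-0.63). Aacs fell in iBAT (-1.17) and STM (-1.06), G6pdx in iBAT (-0.50) and Idh1 in STM (-0.81), while Taldo1 rose in BRN (0.72). In elongation and desaturation, Elovl1 (-0.49) and Hsd17b12 (-0.70) fell in LIV, Elovl5 (-0.69) in iBAT, and Elovl7 in STM (-1.33) and OB (-0.48). Pnpla3, a lipid remodelling enzyme, fell in iBAT (-1.78), and Mcat, of mitochondrial fatty acid synthesis, fell in LIV (-0.56) but rose in iBAT (0.65). The median over these genes was -0.29 in LIV, -0.25 in iBAT and -0.35 in STM, beside member medians of -0.64, -0.82 and -0.57.

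Already at 2 h, Insig1 was lower in LIV (-1.25 ± 0.23) and in iBAT (-1.53 ± 0.23), where Mid1ip1 was lower too (-2.40 ± 0.37), although no member passed the test. At 8 and 12 h the counts were 2 higher and 5 lower of 27 tested in LIV and 0 higher and 6 lower of 26 in iBAT, against 8.89% and 0.819% of all genes. When lane was a term, Mlxipl alone was called at 8 and 12 h in LIV, higher, and Insig1 alone at 2 h, lower. In iBAT without the 22 h libraries, lane left Acss2, Elovl3 and Pgd called lower at 8 and 12 h and 0 called by edgeR at 2 h (8 at an unadjusted p under 0.05). At 8 and 12 h without lane, Mlxipl was higher in LIV (0.51) and lower in iBAT (-1.27), Tkt was higher in LIV (0.39), and Elovl3, an elongase of brown fat, was lower in iBAT (-2.12). Between 8 and 12 h and 18 and 22 h, 0 higher and 5 lower of 27 tested were called in LIV and 2 higher and 4 lower of 26 in iBAT, against 2.7% and 23.3% of all genes. With lane edgeR called 0 in LIV and, with 18 h alone as the late group, 0 in iBAT (7 and 2 at an unadjusted p under 0.05). Elovl3 was higher in iBAT (1.09) and lower in LIV (-1.13) in that step, Nr1h3, a liver X receptor, was higher in iBAT (0.62), and Acss2 was lower in LIV (-0.87) and iBAT (-0.61).

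Within organs, the other members followed Fasn to different degrees. Over the 17 iBAT libraries the Pearson correlation with Fasn of log2 CPM was 0.931 for Acaca, 0.849 for Acacb, 0.814 for Acly and 0.786 for Scd2, but -0.187 for Thrsp. Over the 18 LIV libraries it was 0.753 for Acly, 0.750 for Acaca and 0.747 for Thrsp, but 0.195 for Scd1. In pgWAT (18 libraries) Srebf1 reached 0.873 and Acaca 0.848, and in psWAT (17 libraries) Acaca reached 0.979 and Scd2 0.323. These correlations and those below pool all time points and keep the libraries that stood apart. In psWAT Fasn and Acaca also followed the adipocyte sum (r = 0.884 and 0.907). The psWAT Scd2 value includes 12 h replicate 3, at 923 CPM of Scd2. Outside the pathway lists, the 5 genes most like Fasn, with r in brackets, were Slc38a10 (0.916), Nes (0.902), Ncdn (0.898), Crebbp (0.895) and Flywch1 (0.885) in iBAT, Vac14 (0.955), Afap1 (0.946), Apln (0.933), Sh3tc1 (0.930) and Extl3 (0.929) in pgWAT, and Agpat2 (0.973), Ptges (0.966), Otop1 (0.956), Gm9951 (0.950) and Uck1 (0.947) in psWAT.

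In the GRCm38 annotation the members lie as follows: Srebf1 on chromosome 11 (60199089 to 60222581, minus strand), Acly on chromosome 11 (100476353 to 100528000, minus strand), Acaca on chromosome 11 (84129672 to 84401651, plus strand) and Fasn on chromosome 11 (120805846 to 120824547, minus strand). Thrsp on chromosome 7 (97412938 to 97417730, minus strand), Me1 on chromosome 9 (86581371 to 86695953, minus strand), Acacb on chromosome 5 (114146535 to 114250761, plus strand) and Elovl6 on chromosome 3 (129532355 to 129638495, plus strand) are the only members on their chromosomes. Scd2 on chromosome 19 (44293674 to 44306864, plus strand) and Scd1 on chromosome 19 (44394455 to 44407879, minus strand) lie on opposite strands. Exon lengths, the sum of all annotated exons, run from 2189 bases for Thrsp to 17074 for Acaca. Srebf1 overlaps Rai1 on the opposite strand and Mir6922 on its own, Me1 overlaps A330041J22Rik and Elovl6 overlaps Gm35986 on the opposite strand, and Scd2 overlaps Mir5114. The library kit keeps strand, but the strand setting of the counting is not given in the sources used here, so reads of such partners may not be told apart. Of 50-base exon stretches, 4.56% of Scd1 also occur elsewhere, mostly in Scd3, 3.97% of Scd2, mostly in Scd1, and 3.98% of Elovl6.

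The promoters of the 4 members that fell together in LIV are shown, each from 250 bases before to 50 after the start of a transcript in RefSeq (GRCm38.p6), 5′ to 3′. The RefSeq promoter set used here matched 8 of the 10 members. Scd1 and Scd2 had no match in that set, which says nothing about their annotation elsewhere. Both strands were searched for TCACNCCAC (a sterol regulatory element), CACGTG (an E-box), CCAAT (the NF-Y box) and GGGCGG (the GC box). Matches of different motifs can share bases, but none of those shown do. Of all 32851 promoters of this length, 1.24% held the first, 7.15% the E-box, 37.4% CCAAT and 35.7% GGGCGG. Capitals mark the matches, read forward or as the reverse complement. Fasn, chr11:120824498-120824797 (minus strand), held CCAAT 3 times, starting 90, 62 and 59 bases before that start, the last pair overlapping. Acly, chr11:100527951-100528250 (minus strand), held GGGCGG 4 times before the start and CCAAT once after it. Thrsp, chr7:97417501-97417800 (minus strand), held CCAAT 2 times, and Acacb, chr5:114165268-114165567 (plus strand), held it once. None of the 4 windows held TCACNCCAC or CACGTG, which says only that these letters are not in them.
Fasn: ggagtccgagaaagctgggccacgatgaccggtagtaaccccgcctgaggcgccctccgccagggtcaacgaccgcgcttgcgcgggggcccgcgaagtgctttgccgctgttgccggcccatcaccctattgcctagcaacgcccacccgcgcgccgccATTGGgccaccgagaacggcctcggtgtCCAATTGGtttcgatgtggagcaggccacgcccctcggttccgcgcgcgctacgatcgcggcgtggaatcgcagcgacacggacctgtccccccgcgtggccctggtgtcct
Acly: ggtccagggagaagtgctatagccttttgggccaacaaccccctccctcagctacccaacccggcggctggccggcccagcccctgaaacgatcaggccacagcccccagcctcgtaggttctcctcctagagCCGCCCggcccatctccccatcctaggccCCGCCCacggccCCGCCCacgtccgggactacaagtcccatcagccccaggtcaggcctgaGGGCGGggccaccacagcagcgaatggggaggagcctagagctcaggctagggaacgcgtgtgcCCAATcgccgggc
Thrsp: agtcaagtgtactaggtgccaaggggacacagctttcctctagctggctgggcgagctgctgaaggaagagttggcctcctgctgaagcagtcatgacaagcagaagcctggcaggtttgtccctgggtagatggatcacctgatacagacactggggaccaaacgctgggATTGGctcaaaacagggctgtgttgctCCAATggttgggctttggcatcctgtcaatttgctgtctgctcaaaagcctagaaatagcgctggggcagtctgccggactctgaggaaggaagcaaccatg
Acacb: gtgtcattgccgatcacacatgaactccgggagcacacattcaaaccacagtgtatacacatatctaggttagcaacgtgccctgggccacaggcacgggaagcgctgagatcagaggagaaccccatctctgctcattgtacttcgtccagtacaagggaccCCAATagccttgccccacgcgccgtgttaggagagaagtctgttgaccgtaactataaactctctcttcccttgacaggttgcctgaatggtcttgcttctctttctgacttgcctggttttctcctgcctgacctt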

How the data were processed

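Poly(A) RNA of the 9 organs of 18 mice was sequenced with 1 library per organ and animal. According to the submitters' processing notes, the authors aligned reads to GRCm38.p5 with TopHat2 2.1.1 and counted them per gene with HTSeq 0.9.1, and the deposited values are these counts. The 10 members and the lists of pathway and marker genes were chosen with earlier results of these data known, and members were matched to the count table by symbol. Libraries were grouped by organ and hours without food, as labelled. The 5 libraries left out are absent from the study's list of samples, which drops totals far below the organ mean, and all others entered the fits. With 3045845 to 27801717 counts per retained library, 3 counts equal 0.108 to 0.985 CPM. Reads were amplified by PCR without molecular identifiers, so this floor covers counting error and no more.

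Each organ was fitted alone in edgeR 4.0.16 (R 4.3.3) with TMM factors, 1 mean per time point, robust quasi-likelihood dispersions and F-tests of contrasts. Genes were kept when at least 3 retained libraries reached the CPM that equals 10 counts in the organ's median library. P-values were adjusted by Benjamini-Hochberg over the genes kept. The 18 and 22 h libraries were compared with 0 h in all 9 organs, and 8 and 12 h with 0 h, 2 h with 0 h, and 18 and 22 h with 8 and 12 h in STM, LIV, iBAT, pgWAT and psWAT. Organ-by-time terms were fitted on pairs of organs with the animal as a block, the replicate number being assumed to mark the same animal in all organs of a time point. Alternatives were DESeq2 1.42.0, its size factors (RLE) in edgeR, no filter, all libraries, only the time points compared, 0 and 2 h pooled as reference, an added rule on fold size, replicate number or lane as a term, and leaving out each library. Alternatives chosen after seeing the data were a transcript length offset (a lowess curve of log ratio on exon length per library, span 0.3), marker sums as covariates, the 2 pgWAT libraries with the highest epididymis sums left out, fits within a lane, and iBAT fits without the 22 h libraries, with and without lane. The fits were also run on simulated data, and no result given here rests on those runs. The genes named as most like Fasn are the 5 genes outside the lists with the highest Pearson r of log2 CPM (prior count 2) in that organ, given for iBAT, pgWAT and psWAT. Exon lengths, positions, shared 50-base stretches and promoters came from the GRCm38 annotation and RefSeq. Python 3.11.15, pandas 2.3.3, numpy 2.4.6 and matplotlib 3.10.9 were used for tables and figures.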

Additional observations from a re-analysis of the deposited data

Results flagged for a closer look

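A pair of members changed differently in LIV and iBAT at 18 and 22 h against 0 h by the organ-by-time term. For Acly the LIV change minus the iBAT change was 1.72 ± 0.29, adjusted p = 0.00398 by edgeR, with LIV levels of 146.2, 157.1 and 199 CPM at 0 h and 52.6 to 88.1 (median 75.6) late, and iBAT levels of 2772, 2799 and 3964 at 0 h and 947, 446, 659, 219.8 and 311 late. All late libraries of each organ lay below its 0 h libraries. For Scd2 the difference was 2.96 ± 0.62, adjusted p = 0.0148, from LIV levels of 5.64, 6.71 and 4.92 CPM at 0 h and 3.03 to 5.39 (median 4.65) late, and iBAT levels of 305, 257 and 436 at 0 h and 89.9, 35.9, 26.3, 14.95 and 25.7 late. Without the animal as a block, and without the filter on low counts, the number of members called in this test was again 2, and with 0 and 2 h pooled as reference it was 3. The shares of all genes called in these alternative fits are not given here. Lane was not a term of this test, and what lies behind the differences was not tested.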

How the results depend on the processing

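The counts of members called were computed again under each alternative. Of 27 calls of a member in a comparison, with 742 values under the alternatives, 529 kept the call, the others lost it and 0 changed sign. Of the calls an alternative applied to, DESeq2 kept 27 of 27, RLE size factors 24 of 27, no filter 23 of 27, the length offset 17 of 27, only the time points compared 16 of 27, 0 and 2 h pooled 12 of 19, the rule on fold size 10 of 27, the lane term 0 of 12 and the fit within lane 2 0 of 3. The cause of these shifts was not tested.

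By DESeq2 the number called was 1 in OB, 2 in BRN, 3 in pgWAT and 1 in psWAT at 18 and 22 h, 2 in LIV and 5 in iBAT at 8 and 12 h, 1 in LIV, 3 in iBAT and 8 in psWAT at 2 h, and 1 in STM and 6 in LIV from 8 and 12 h to 18 and 22 h (the last step). DESeq2 called 18% of all genes in BRN late, 11.7% in LIV and 268 genes in iBAT at 8 and 12 h, and 6.23% in LIV for the last step. Its other shares are given above. Without the filter it was 1 in OB, 1 in CBL, 7 in LIV and 2 in pgWAT late, 5 in LIV at 8 and 12 h, 2 in LIV and 1 in iBAT at 2 h, and 8 in LIV for the last step. The same fits called 5.1% of all genes in OB, 2.34% in CBL and 7.47% in LIV late, and 21 genes in pgWAT. In LIV the share was 6.88% at 8 and 12 h, 2.05% at 2 h and 5.48% for the last step, and 65 genes were called in iBAT at 2 h. With an absolute log2 fold change over 1 also asked for, it was 0 in BRN, 0 in STM, 2 in LIV and 4 in iBAT late, 0 in LIV and 1 in iBAT at 8 and 12 h, and 1 in LIV and 2 in iBAT for the last step.

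With only the time points compared in the fit, edgeR called 0 in BRN (2 at an unadjusted p under 0.05) and 2 in LIV late, 2 in LIV and 1 in iBAT at 8 and 12 h, 1 in LIV and 2 in iBAT at 2 h, and 3 in iBAT for the last step. With 0 and 2 h pooled as reference it called 0 in BRN (4 at an unadjusted p under 0.05) and 1 in CBL late, and 2 in LIV and 0 in iBAT (7 at an unadjusted p under 0.05) at 8 and 12 h. With all libraries, and with the number series of the library names as a term, BRN had 0 and 0, with 1 and 0 at an unadjusted p under 0.05 and 0 of all genes called in each. With lane as a term, edgeR called 0 in BRN, 0 in STM and 0 in LIV late, with 0, 3 and 2 at an unadjusted p under 0.05, and 0 in LIV for the last step (5). The fit within lane 2 gave 0 in LIV for the last step (5).

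Among alternatives chosen after seeing the data, the length offset gave 2 in BRN and 2 in iBAT late, 1 in iBAT at 2 h and 3 in iBAT for the last step. The adipocyte sum gave 6 and leaving out the 2 libraries with the highest epididymis sums 3 in pgWAT late, and the keratinocyte sum gave 1 in STM for the last step. Lane could not be fitted in iBAT with the 22 h libraries, each alone in its lane, as is 18 h replicate 2, which the lane term takes out of the 18 h group. Without them edgeR called 1 in iBAT late (18 h alone), 3 at 8 and 12 h, 0 at 2 h and 0 for the last step, keeping 4 of 15 calls, and with lane 0, 1, 0 and 0, keeping 1 of 15, with 4, 7, 4 and 2 at an unadjusted p under 0.05. With the replicate block, replicate numbers not marking paired animals, 25 of 27 calls were kept, with 4 called in LIV, 7 in iBAT, 2 in STM and 1 in BRN late, and the calls lost were Srebf1 in STM late and Me1 in iBAT at 8 and 12 h. The full order of organs at 0 h was kept for 3 of 10 members on raw totals, 1 with TMM factors over all organs and 0 with means over all times, and the highest organ for 9 (not Scd1), 8 (not Srebf1 and Me1) and 9 (not Me1).

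Leaving out each library, with the remaining libraries of its time point assumed to vary like the other groups, gave 1 to 5 members in LIV late (1 without 0 h replicate 1, 0 h replicate 3 or 22 h replicate 2, and 2 without 0 h replicate 2 or 22 h replicate 3), 4 to 7 in iBAT (4 without 0 h replicate 2), 2 to 4 in STM, 0 to 3 in pgWAT (3 without 22 h replicate 2) and 0 to 1 in OB (1 without 0 h replicate 3) and CBL (1 without 8 h replicate 1). BRN ran from 0 to 3, with 0 without 0 h replicate 1, 2 or 3, 2 h replicate 1, 8 h replicate 1 or 2, 12 h replicate 1, 18 h replicate 2 or 22 h replicate 1 or 2, with 2 without 12 h replicate 2 or 22 h replicate 3 and with 3 without 18 h replicate 3. At 8 and 12 h LIV ran from 1 to 2 (2 without 2 h replicate 1 or 3 or 8 h replicate 3) and iBAT from 1 to 4 (1 without 0 h replicate 1 or 3 or 8 h replicate 2 or 3). At 2 h iBAT ran from 0 to 1 (1 without 0 h replicate 2, 12 h replicate 2 or 3 or 18 h replicate 1). For the last step LIV ran from 0 to 7 (0 without 8 h replicate 2 or 22 h replicate 2, 1 without 8 h replicate 1, 12 h replicate 3, 18 h replicate 2 or 3 or 22 h replicate 3, 5 without 2 h replicate 1 or 3, and 7 without 18 h replicate 1). The iBAT count ran from 0 to 9 there (0 without 22 h replicate 2, 2 without 8 h replicate 2 or 3, 12 h replicate 2 or 18 h replicate 2 or 3, and 9 without 12 h replicate 1). STM ran from 0 to 1 there (1 without 0 h replicate 3 or 18 h replicate 2). BST, and the remaining comparisons of STM, LIV, pgWAT and psWAT, gave 0 by edgeR throughout. The shares of all genes called in the fits that left out a library are not given here, so these ranges are not read as particular to the members.

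Each of these calls held whichever library was left out, with the highest adjusted p of edgeR given: Fasn in STM late (at most 0.0362), Acly in LIV late (at most 0.000822), Acly in iBAT late (at most 0.000977), Acaca in iBAT late (at most 0.0291), Fasn in iBAT late (at most 0.0355), Scd2 in iBAT late (at most 0.0196), Acly in LIV at 8 and 12 h (at most 0.0491) and Acly in iBAT at 8 and 12 h (at most 0.0135).

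The other calls were lost without any of the libraries given here by hours and replicate (r), with the highest adjusted p of edgeR. In BRN late, Thrsp (0 h r1,r2,r3, 2 h r1, 8 h r1,r2, 12 h r1, 18 h r2, 22 h r1,r2, up to 0.161). In STM late, Srebf1 (0 h r1,r2,r3, 2 h r3, 18 h r1, 22 h r2,r3, up to 0.153), Scd2 (0 h r2, up to 0.0756). In LIV late, Thrsp (0 h r1,r2,r3, 18 h r2, 22 h r2, up to 0.0931), Acacb (0 h r1,r3, 18 h r1,r3, 22 h r1,r2,r3, up to 0.223), Fasn (0 h r1,r2,r3, 22 h r2,r3, up to 0.122). In iBAT late, Srebf1 (0 h r2,r3, 18 h r2,r3, 22 h r2, up to 0.107), Acacb (0 h r2, 22 h r2, up to 0.126), Elovl6 (0 h r1,r2,r3, 2 h r1,r2, 8 h r1,r2,r3, 18 h r1,r2,r3, 22 h r3, up to 0.169). In iBAT at 8 and 12 h, Me1 (0 h r1,r3, 2 h r1,r2, 8 h r1,r2,r3, 12 h r1,r2, 18 h r1,r2,r3, up to 0.269), Elovl6 (0 h r1,r3, 8 h r2,r3, up to 0.185). In LIV for the last step, Acly (8 h r2, 22 h r2, up to 0.0561), Acacb (8 h r1,r2, 12 h r3, 18 h r2,r3, 22 h r2,r3, up to 0.0879), Elovl6 (8 h r1,r2, 12 h r2,r3, 18 h r2,r3, 22 h r1,r2,r3, up to 0.0891). In iBAT for the last step, Thrsp (22 h r2, up to 0.101), Acly (22 h r2, up to 0.0707), Me1 (8 h r2,r3, 12 h r2, 18 h r2,r3, 22 h r2, up to 0.141), Acacb (2 h r1,r3, 8 h r1,r2,r3, 12 h r2,r3, 18 h r1,r2,r3, 22 h r2,r3, up to 0.118), Scd2 (8 h r2,r3, 12 h r2, 18 h r2,r3, 22 h r2, up to 0.139).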

Other observations

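The 0 h mice of psWAT differed widely among themselves, with Fasn at 6490.3, 3326 and 748 CPM and adipocyte sums of 8738, 6036 and 538 CPM.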
